A study of Homo sapiens with 6 samples.

Results

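The nuclear genes of oxidative phosphorylation were examined for SMARCA4 peaks in K562 cells, a human chronic myelogenous leukaemia line. Members were chosen by symbol from the protein-coding nuclear genes of the GENCODE annotation on hg19. They are the symbols that begin with NDUFA, NDUFB, NDUFC, NDUFS, NDUFV, UQCR or ATP5, the genes SDHA to SDHD, and the symbols that begin with COX4 to COX8, none with a hyphen. The rule gave 96 of 20162 genes. Of these, 79 were counted as subunits of complexes I to V, 8 were assembly factors of complex I (NDUFAF genes), and 9 were tissue-specific isoforms or near-copies, which are described apart. The study comprised 3 ChIP libraries made with a SMARCA4 antibody and 3 input libraries without antibody, all from K562 cells fixed first in 2 mM disuccinimidyl glutarate (30 min) and then in 1% formaldehyde (10 min). The replicates are described as biological in the paper and as technical in the series description, so the independence of the replicates is not settled. The deposited list gives a start and an end for each peak found in 2 of 3 replicates (9335 near coding 5′ ends and 18930 elsewhere), without a height or a value per replicate, so no SD between replicates is given. A gene was counted as having a peak (region in the plots) when at least 1 bp of a peak lay within 1 kb either side of its annotated 5′ end.

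Oxidative phosphorylation is carried out in the inner mitochondrial membrane. Complexes I and II pass electrons from NADH and succinate to ubiquinone, complex III passes them on to cytochrome c and complex IV to oxygen, and complex V uses the resulting proton gradient to make ATP. A small set of the subunits is encoded by mitochondrial DNA and all others by nuclear genes, many of which are known targets of the transcription factors NRF1, the ETS factor GABP (also called NRF2), YY1 and the oestrogen-related receptors. SMARCA4 is the ATPase of SWI/SNF (BAF) complexes, which move nucleosomes at promoters and enhancers.

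The promoter letters that recur in these genes are shown first, from genes picked after their values were seen, with and without a peak over the letters. All stretches are from hg19 and are written 5′ to 3′ in the direction of transcription unless stated otherwise, and a match is a description of the letters, not a binding site. Positions are counted from 0 at the annotated 5′ end, with upstream positions negative. SDHA, which encodes the flavoprotein of succinate dehydrogenase, held the NRF1 motif GCGCANGCG 4 times, at -149, -100, -51 and -2. The matches were 49 bases apart and all read GCGCAGGCG. Between the units that start with these matches, 28 of 49 bases were the same in unit 1 and unit 2, and 37 of 49 in unit 2 and unit 3. The whole stretch lay inside a peak and held 12 bases annotated as untranslated exon. Capitals mark the NRF1 matches:
SDHA (chr5:218269-218424, plus strand): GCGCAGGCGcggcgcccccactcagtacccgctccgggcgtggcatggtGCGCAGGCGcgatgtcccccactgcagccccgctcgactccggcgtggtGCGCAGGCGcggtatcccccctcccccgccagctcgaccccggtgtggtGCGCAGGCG

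For genes with a match inside a peak, 1 NRF1 match with 10 bases on either side is shown per gene, with the match in capitals on either strand. The NDUFS6 stretch held 16 bases annotated as untranslated exon and that of ATP5MC3 6. ATP5F1D held another match at -26, which is not shown:
NDUFS6 (chr5:1801465-1801493, plus strand): cagaagccgtGCGCATGCGttagcgctaa
NDUFS7 (chr19:1383476-1383504, plus strand): cgccttccctGCGCAGGCGcagtcgtttc
UQCRFS1 (chr19:29704070-29704098, minus strand): cgcctcctcgCGCCTGCGCcgtggttgga
ATP5F1D (chr19:1241679-1241707, plus strand): tcgtcaacgtCGCGTGCGCcctgccggga
ATP5MC3 (chr2:176046433-176046461, minus strand): agccggaccgCGCTTGCGCattgagtccc

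The same letters were also found in genes without a peak in the window, including COX8C, which encodes a testis isoform of a complex IV subunit. Of these stretches, NDUFA9 held 27 untranslated exon bases and COX8C 5, UQCR10 lay in exons throughout with 11 of its bases annotated as untranslated, and the NDUFA12 and NDUFB4 stretches lay outside annotated exons. NDUFB4 held further matches at -151, -150 and 0, of which those at -151 and -150 overlap on opposite strands. By this count it had 4 matches, as SDHA did without overlaps, and no peak:
NDUFA12 (chr12:95397571-95397599, minus strand): acctagctctGCGCACGCGcagagccacc
NDUFA9 (chr12:4758191-4758219, plus strand): tcttggttagCGCTTGCGCagacaggcga
NDUFB4 (chr3:120315110-120315138, plus strand): ctctgctaacGCGCAGGCGcacttcctga
UQCR10 (chr22:30163340-30163368, plus strand): gtcggccccaGCGCAGGCGcggtggcgcg
COX8C (chr14:93813504-93813532, plus strand): gtggctggggCGCCTGCGCaaaccagctg

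The ETS motif CCGGAAG is shown in the same way, again in capitals and on either strand, for genes with the match inside a peak. The NDUFS1 stretch lay wholly in an annotated untranslated exon, and those of NDUFA1, COX5B and COX8A lay outside exons:
NDUFA1 (chrX:119005738-119005764, plus strand): tccgtcgcttCTTCCGGagccgtacgt
NDUFS1 (chr2:207024309-207024335, minus strand): gctggggccaCTTCCGGcggaactgcg
UQCRQ (chr5:132202270-132202296, plus strand): atggtatctcCCGGAAGttacctcacg
COX5B (chr2:98262478-98262504, plus strand): aagcccgcccCCGGAAGtccctcctgt
COX8A (chr11:63742064-63742090, plus strand): agctccagaaCTTCCGGccagcgcagc

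An ETS match was also found in 5 genes without a peak in the window. The matches of COX6A1 and NDUFAF8, at 7 and 4, are not shown, and the other stretches, all outside annotated exons, were as follows:
NDUFB5 (chr3:179322449-179322475, plus strand): gatagcgtcaCTTCCGGcgtctcaagc
COX7A2L (chr2:42652238-42652264, minus strand): ttccaccctgCCGGAAGcaccttgtgt
NDUFAF4 (chr6:97345898-97345924, minus strand): ccacctcccgCCGGAAGcggccctcgt

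Closely spaced matches are shown for a further 3 genes, each stretch inside a peak. COX7C, a small subunit of complex IV, held the ZNF143 motif ACTACANTT at -114 and -62. UQCR11, a small subunit of complex III, held ETS matches on opposite strands at -106 and -86. SDHB, the iron-sulfur subunit of complex II, held the CRE TGACGTCA at -4 and the YY1 motif AAGATGGCG at 10, in a stretch with 13 untranslated and 8 coding bases. Capitals mark these matches:
COX7C (chr5:85913631-85913691, plus strand): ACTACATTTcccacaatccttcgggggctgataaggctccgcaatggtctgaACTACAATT
UQCR11 (chr19:1605552-1605578, minus strand): CCGGAAGttactgtaagtggCTTCCGG
SDHB (chr1:17380507-17380533, minus strand): gcTGACGTCAggagccAAGATGGCGgc

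Potential G-quadruplex (G4) motifs were stretches in which 4 runs, each of 3 or more G, were separated by 1 to 7 bases of any kind, G included, so that a long run of G can hold more than 1 of the runs, as in UQCR11. They are shown on the strand that carries the guanines, with all runs of G of that length in capitals, for SDHB, UQCR11 and COX5B, where they lay inside a peak, and for 4 isoform genes without a peak in the window (COX4I2, COX6B2, COX7A1 and COX8C). The COX6B2 stretch lay in an annotated untranslated exon, and the others lay outside exons:
SDHB (chr1:17380662-17380684, plus strand): GGGtGGGcggaGGGaaggcGGGG
UQCR11 (chr19:1605493-1605513, plus strand): GGGGaGGGcGGGGGGGGGGGG
COX5B (chr2:98262421-98262441, plus strand): GGGagtGGGcGGGctcgaGGG
COX4I2 (chr20:30225662-30225680, plus strand): GGGGcGGGccGGGGGcGGG
COX6B2 (chr19:55866205-55866232, minus strand): GGGGGcgtcGGGGGagcaaGGGGtGGGG
COX7A1 (chr19:36643422-36643448, plus strand): GGGGacgcggcGGGGctGGGGctGGGG
COX8C (chr14:93813460-93813483, plus strand): GGGcagaaGGGGtGGGGtaGGGGG

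Of the 96 genes, 65 had a SMARCA4 peak within 1 kb of the 5′ end (67.7%, 95% Wilson interval 57.8 to 76.2%), beside 42.3% of all nuclear protein-coding genes (8526 of 20162). The 5′ end itself lay inside a peak at 47 genes (49%, interval 39.2 to 58.8%), beside 30.5% of all coding genes. Around the canonical start, 72 of 95 members had a peak (75.8%, interval 66.3 to 83.3%), beside 44.8% of the coding genes for which the annotation tags such a start. Among the 79 subunits of complexes I to V, 60 had a peak (75.9%, interval 65.5 to 84%). These intervals cover counting error only, and genes are not replicates of each other. Since the list was chosen with results known, no test was run, and none of these shares is called particular to it. There were 90 peaks in the windows of the members. A single peak was found at 44 genes, 2 peaks at 17 genes and 3 peaks at 4 genes (NDUFA11, SDHA, ATP5IF1 and ATP5PF). When peaks at most 500 bp apart were merged, 71 remained, so the number of peaks per gene depends on how neighbouring peaks are joined.

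**Figure D1:**
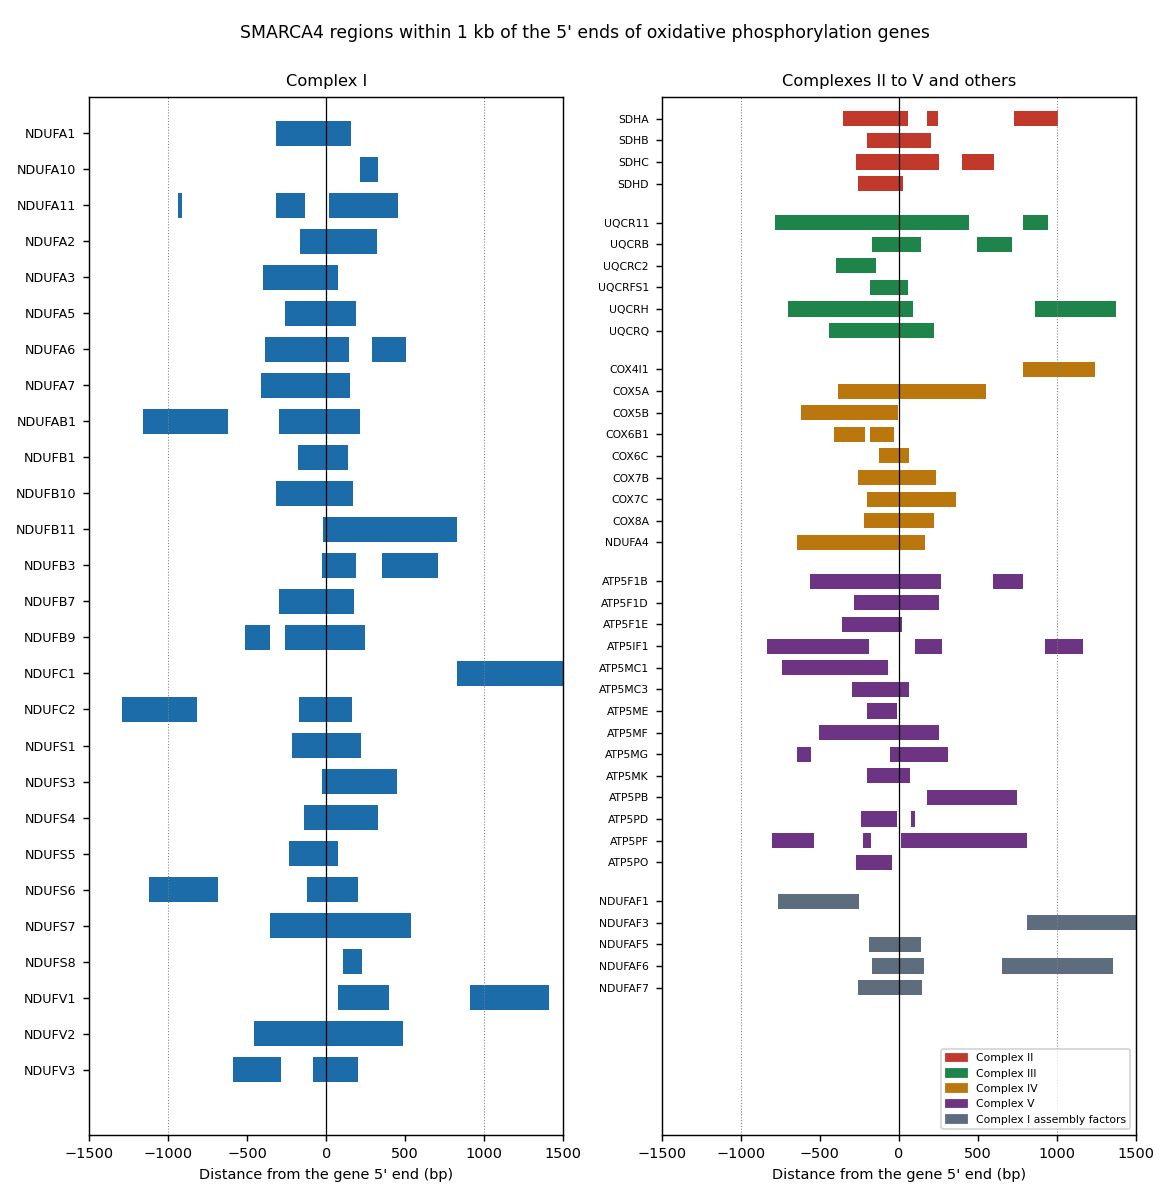
Each row is 1 of the 65 genes with a peak and each bar a SMARCA4 peak that reaches within 1 kb (dotted lines) of the 5′ end at 0, in bp along the direction of transcription, with colours for the complexes and bars drawn up to 1500 bp from the 5′ end. Most bars cross or adjoin 0, and no tissue isoform or near-copy has a row because none had a peak.

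Complex I, which oxidises NADH, had a peak at 27 of 37 subunit genes (73%, interval 57 to 84.6%). NDUFS1, which encodes the largest iron-sulfur subunit, had a peak of 442 bp from -218 to 223 (chr2:207024010-207024451), almost centred on the 5′ end. NDUFV1, the subunit that binds NADH, had a pair of peaks inside the transcribed part, of 324 bp from 72 to 395 and of 499 bp from 910 to 1408. The latter spanned the canonical start, which lies at 1283. The widest complex I peak was that of NDUFV2, another iron-sulfur subunit, with 938 bp, and the narrowest was 28 bp, the outermost of the 3 peaks of NDUFA11. Narrow peaks were also the only ones at NDUFA10 (118 bp) and NDUFS8 (119 bp). NDUFC1 had its peak far into the transcribed part, from 828 to 1539.

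Complex I subunits without a peak in the window included NDUFA8, NDUFA9, NDUFA12, NDUFA13, NDUFB2, NDUFB4, NDUFB5, NDUFB6 and NDUFB8. NDUFB2 had a canonical start at 5931, inside a peak, and NDUFB5 had a peak at a coding start other than the canonical one. NDUFA8, NDUFA9, NDUFA12, NDUFA13, NDUFB4, NDUFB6 and NDUFB8 had no peak within 1 kb of any coding start. The nearest peak was 327974 bp away for NDUFA9, 49196 bp for NDUFA12, 27290 bp for NDUFB4 and 20982 bp for NDUFA8. It was 18717 bp away for NDUFB6, 16616 bp for NDUFA13 and 5853 bp for NDUFB8. These genes encode accessory subunits, which surround the catalytic core.

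All 4 genes of complex II had a peak (interval 51 to 100%), and in each the peak covered the 5′ end. SDHA had the peak of 416 bp (chr5:218063-218478) over the NRF1 repeats printed above, a second peak of 71 bp from 176 to 246, the narrowest of the complex, and another of 282 bp from 727 to 1008. SDHB had a peak of 405 bp (chr1:17380326-17380730) whose centre lay 1 bp upstream of the 5′ end. SDHC and SDHD encode the membrane anchors. SDHC had the widest peak of the complex, 527 bp from -271 to 255, and SDHD had a peak of 287 bp from -260 to 26, over a promoter shared with TIMM8B, a gene of mitochondrial protein import whose 5′ end lies 26 bp away.

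Complex III had a peak at 6 of 8 genes (75%, interval 40.9 to 92.9%). UQCRFS1, which encodes the Rieske iron-sulfur protein, had a peak of 239 bp from -179 to 59 (chr19:29703999-29704237) that contained the NRF1 match. UQCRC2, a core subunit, had a peak of 252 bp that ended 143 bp before the 5′ end. UQCR11 had both the widest peak of all members, 1228 bp from -783 to 444, and the narrowest of the complex, 159 bp. UQCRC1, the partner of UQCRC2 in the core, had no peak in the window. Its nearest peak was 1180 bp away and covered the canonical start at 1330. UQCR10 had no peak at any coding start, and the nearest was 13482 bp away.

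In complex IV, which reduces oxygen, 9 of 12 genes had a peak (75%, interval 46.8 to 91.1%). COX5A had the widest, 936 bp from -385 to 550 (chr15:75229874-75230809). COX5B had a peak of 619 bp that stopped 2 bp before the 5′ end, so that of its ETS matches at -37 and -5 only that at -37 lay wholly inside the peak. COX4I1, the common form of subunit 4, had a peak of 457 bp from 788 to 1244 that contained the canonical start at 1062. The narrowest peak, 150 bp, belonged to COX6B1. NDUFA4, named for complex I and counted here with complex IV, had a peak of 813 bp. COX6A1, COX7A2 and COX7A2L had none in the window. For COX6A1 and COX7A2 none was found at any coding start, and the nearest peak to the annotated 5′ end was 7339 and 34402 bp away. COX7A2L, a factor of respiratory supercomplexes, had its canonical start 63871 bp downstream of the gene's 5′ end, and that start lay inside a peak.

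Complex V, the ATP synthase, had a peak at 14 of 18 genes (77.8%, interval 54.8 to 91%). ATP5F1B, which encodes the catalytic beta subunit, had the widest, 825 bp from -559 to 265 (chr12:57039503-57040327), and a second peak of 191 bp. ATP5F1A, the alpha subunit, had no peak in the window. Its canonical start lies 6038 bp downstream and 129 bp from a peak. ATP5MC2 and ATP5MJ had none in the window either, and their canonical starts at 1325 and 6740 lay inside peaks. Counted at canonical starts, 17 of 18 genes of complex V therefore had a peak (94.4%, interval 74.2 to 99%). The exception was ATP5F1C, the gamma subunit of the rotating stalk, whose nearest peak was 30121 bp away. The share at canonical starts was also higher in complexes I (80.6%), III (87.5%) and IV (83.3%). Over the subunits of complexes I to V it was 85.9% (67 of 78). The genes ATP5MC1, ATP5MC2 and ATP5MC3, encode the same mature subunit c of the rotor ring, and peaks were found for ATP5MC1 (672 bp) and ATP5MC3 (360 bp). A peak covered the 5′ end at 7 of 18 genes (38.9%, interval 20.3 to 61.4%). ATP5PB, ATP5PF and ATP5IF1, the gene of the ATPase inhibitor counted here with complex V, had their nearest peak inside the transcribed part, starting at 180, 16 and 105. ATP5MC1, ATP5ME, ATP5PD and ATP5PO had peaks that ended 12 to 67 bp before the 5′ end. ATP5PD had the narrowest peak of all members, 25 bp, as its second.

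Of the 8 complex I assembly factors, 5 had a peak (62.5%, interval 30.6 to 86.3%). The widest was that of NDUFAF3, 1001 bp from 811 to 1811, over the canonical start at 1662. The narrowest, 324 bp, was at NDUFAF6. NDUFAF2, NDUFAF4 and NDUFAF8 had none, and the nearest peak was 33793, 19268 and 15708 bp away.

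None of the 9 tissue-specific isoforms and near-copies had a peak in the window (interval 0 to 29.9%), nor within 1 kb of any coding start. COX4I2, the lung isoform of subunit 4, was 23737 bp from the nearest peak, whereas COX4I1 had one at its canonical start. COX6A2 and COX7A1, the heart and skeletal muscle isoforms, were 14669 and 12220 bp from a peak, and their common partners COX6A1 and COX7A2 also had none. The testis isoforms COX6B2, COX7B2 and COX8C were 13268, 554229 and 13895 bp from a peak. Their partners COX6B1, COX7B and COX8A all had peaks, of which those of COX7B (497 bp) and COX8A (441 bp) covered the 5′ end. NDUFA4L2, a paralogue of NDUFA4 known to be induced in hypoxia, was nearest, with a peak 1351 bp away. UQCRHL and ATP5MGL, near-copies of UQCRH and ATP5MG, were 13621 and 6312 bp from a peak, and both of their partners had peaks over the 5′ end. The isoform promoters had a median GC content of 59.7%, close to the 60.3% of all coding genes, and a median CpG observed/expected ratio of 0.52, below the 0.791 of all members and the 0.694 of all coding genes.

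**Figure D2:**
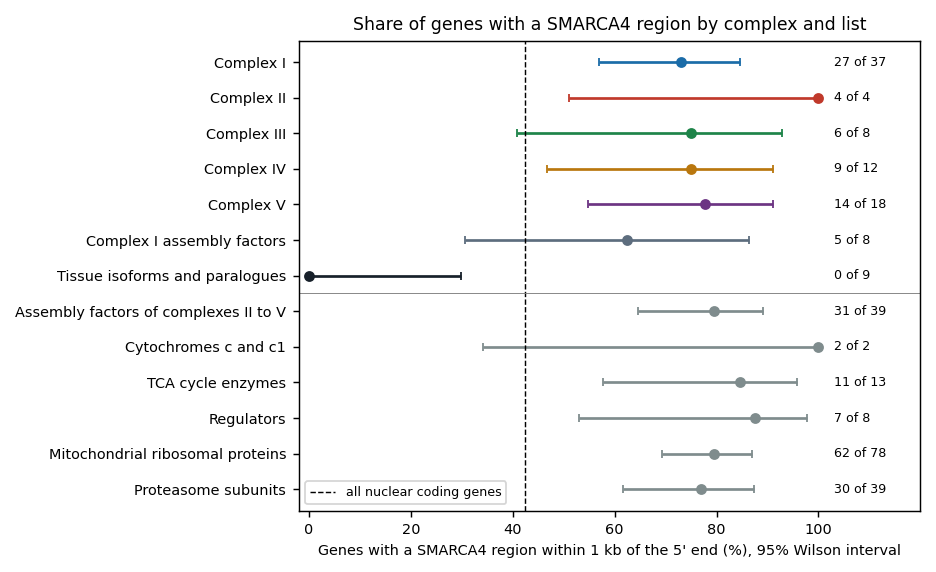
Points give the percentage of genes with a SMARCA4 peak within 1 kb of the 5′ end and bars the 95% Wilson interval, for the members by complex (above the line) and for other gene lists (below it), with gene counts at the right and all nuclear coding genes as the dashed line at 42.3%. The 5 complexes lie between 73 and 100%, and the tissue isoforms and near-copies at 0.

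Other genes of the same pathway and lists of other housekeeping functions gave similar shares. Assembly factors of complexes II to V had a peak at 31 of 39 genes (79.5%, interval 64.5 to 89.2%). Those without were ATPAF2, BCS1L, COX10, COX16, COX17, PET100, PET117 and UQCC1. CYCS and CYC1, the genes of the electron carriers cytochrome c and c1, both had a peak over the 5′ end. Of the citric acid cycle enzymes, 11 of 13 had a peak (84.6%, interval 57.8 to 95.7%), with DLST and SUCLG2 as the exceptions. Among 8 regulators of the pathway, NRF1, GABPA, GABPB1, ESRRA, PPARGC1B, TFAM and YY1 had a peak. PPARGC1A, a coactivator of mitochondrial biogenesis in muscle and brown fat, had none, and the nearest was 680628 bp away. Mitochondrial ribosomal protein genes had a peak in 62 of 78 cases (79.5%, interval 69.2 to 87%) and proteasome subunit genes in 30 of 39 (76.9%, interval 61.7 to 87.4%). The share of 75.9% for the subunits of complexes I to V lay inside the intervals of all of these lists. The share of all 96 members, 67.7%, lay below the interval of the mitochondrial ribosomal protein genes and inside the others. Tissue-specific genes such as PSMA8 and PSMB11 were kept in the proteasome list.

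The peaks at the members were close to the 5′ end, as were those at other coding genes. In the plot of coverage by position, a peak lay over the position 50 bp upstream at 51% of the members, which was the highest value, whereas the coverage of all coding genes was highest at the 5′ end itself, with 30.5%. At the 5′ end the higher coverage of the members mostly repeats their larger share with a peak. Among genes with a peak the 5′ end was covered at 72.3% of the members and 72.2% of all coding genes. The curve of the members was not higher throughout, and at 350 bp downstream it stood at 12.5% beside 15.1%. Among genes with a peak, coverage was 72.3% beside 63.8% at 150 bp upstream and 30.8% beside 45.2% at 250 bp downstream. The shift of the maximum rests on 49 genes covered at 50 bp upstream and 47 at the 5′ end. The centre of the nearest peak was upstream of the 5′ end at 41 of 65 genes with a peak (63.1%), beside 50.7% of all coding genes with a peak, and its median position was -21.5 bp, beside -4 bp. By complex this median was 14.5 bp in complex I, -62.5 bp in complex II, -139 bp in complex III, -11 bp in complex IV and -112 bp in complex V. The middle base of 34 of the 90 peaks lay outside coding genes (37.8%), of 26 in an untranslated part of an exon (28.9%), of 19 in an intron (21.1%), of 6 in coding sequence (6.67%) and of 5 in another exon. The corresponding shares for the 9335 peaks at all coding genes were 38.2, 29, 22.5, 7.32 and 3.02%.

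**Figure D3:**
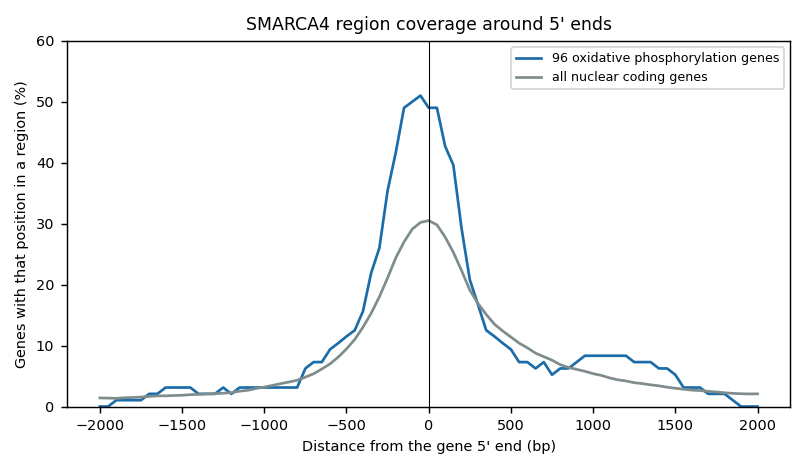
The vertical axis gives the percentage of genes in which that position lies inside a SMARCA4 peak, every 50 bp up to 2 kb from the 5′ end, for the 96 members and for all nuclear coding genes. The curve of the members reaches 51% at 50 bp upstream and that of all coding genes 30.5% at 0.

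The median width of the 90 peaks was 412 bp (95% interval of the median 324 to 473 bp), beside 438 bp (428 to 447 bp) for peaks at all coding genes, and the quartiles were 240 and 532 bp beside 257 and 707 bp. A width of at least 707 bp, the upper quartile at coding genes, was reached by 12 peaks. These were those of UQCR11, NDUFAF3, NDUFV2, COX5A, NDUFS7, NDUFB11, ATP5F1B, NDUFA4, ATP5PF, UQCRH, ATP5MF and NDUFC1, from 1228 down to 712 bp. Among peaks at coding genes, 6.13% were at least as wide as that of UQCR11. Peaks narrower than 200 bp made up 17.8% at the members and 14.6% at all coding genes. By complex the median width was 450 bp (I), 287 bp (II), 314 bp (III), 477 bp (IV) and 270 bp (V), with overlapping intervals. Widths are those of the deposited list, which does not give the peaks of single replicates.

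**Figure D4:**
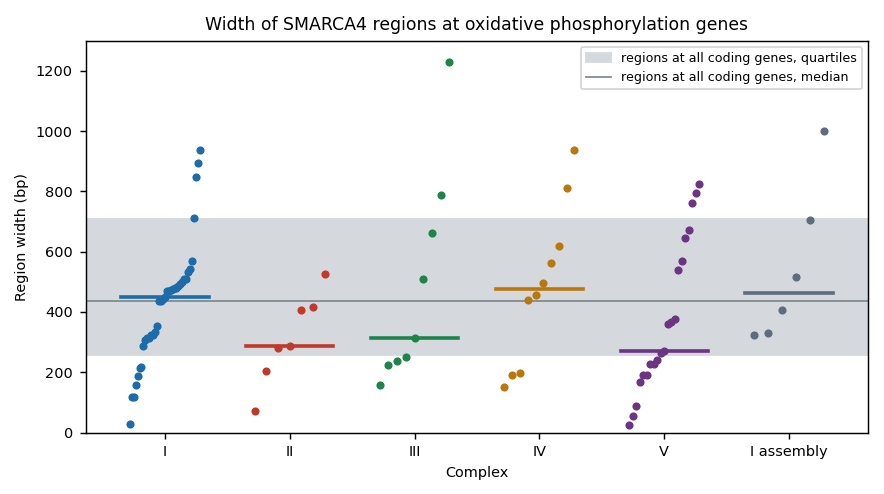
Each point is the width in bp of a SMARCA4 peak at a member, by complex, and each thick line the median of the complex, with the quartiles (grey band, 257 to 707 bp) and median (grey line, 438 bp) of peaks at all coding genes. The medians of the complexes lie between 270 and 477 bp, and UQCR11 has the widest peak with 1228 bp.

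Many members faced another gene. A named protein-coding gene on the opposite strand started within 1 kb, head to head, at 24 of 96 members (25%, interval 17.4 to 34.5%), beside 9.32% of all coding genes. The share was 16.3% in coding genes with a peak and 24.4% in mitochondrial ribosomal protein genes. It was 30.8% in assembly factors of complexes II to V and 15.4% in proteasome genes. Examples among the members with a peak between the genes were NDUFA1 and RNF113A (99 bp apart), NDUFS1 and EEF1B2 (76 bp), NDUFS6 and MRPL36 (41 bp), SDHA and CCDC127 (150 bp), UQCRH and LRRC41 (82 bp), and COX7B and MAGT1 (169 bp). Of the 24 genes with such a neighbour, 14 had a peak (58.3%, interval 38.8 to 75.5%), and of the 72 without, 51 (70.8%, interval 59.5 to 80.1%). Over all coding genes the order was the other way round, with 74.1% of 1879 genes with such a neighbour and 39% of 18283 without. The intervals of the members overlapped. The 10 members with a divergent neighbour and no peak were NDUFA8, NDUFA9, NDUFA13, NDUFB5, UQCR10, ATP5F1A, ATP5F1C, ATP5MJ, NDUFAF2 and NDUFAF8. NDUFB5 faces MRPL47, a mitochondrial ribosomal protein gene, at 41 bp, the same distance as NDUFS6 and MRPL36, which had a peak.

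Of the 90 peaks, 39 also reached the window of another named coding gene (43.3%). Counted by gene, 29 of the 65 members with a peak shared a peak in this way (44.6%), beside 26.5% of all named coding genes with a peak (2168 of 8188). No peak reached 2 members. ATP5PF, which encodes coupling factor 6 of the ATP synthase, shared its peak of 795 bp (chr21:27107174-27107968) with GABPA, the gene of the DNA-binding subunit of GABP. In such cases the list cannot assign the peak to either gene.

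At the gene 5′ end the NRF1 motif had the largest difference in share of promoters between members and all coding genes. At canonical starts the G4 motif differed more (14.7% beside 34.1%) than NRF1 (29.5% beside 11%). Motifs were searched in the 300 bases from 250 before to 50 after the 5′ end and on both strands. NRF1 was found in 26 of 96 promoters (27.1%, interval 19.2 to 36.7%), beside 8.95% of all coding genes and 15% of coding genes with a peak. Counting overlapping matches on both strands separately, the 26 promoters held 43 matches with a median position of -40. Of the 29 matches in genes with a peak, 27 lay inside it, those outside being in NDUFB11 and ATP5PO. Among the members, 18 of 26 genes with the motif had a peak (69.2%, interval 50 to 83.5%) and 47 of 70 without it (67.1%, interval 55.5 to 77%). Among the subunits of complexes I to V the shares were 70.8% with the motif and 78.2% without, and in both sets the intervals overlapped. Over all coding genes the corresponding shares were 71 and 39.5%. By complex, NRF1 matches were found in 10 of 37 promoters of complex I, 2 of 4 of complex II, 4 of 8 of complex III, 2 of 12 of complex IV and 6 of 18 of complex V. Subunits without a peak held the motif in 7 of 19 cases (NDUFA8, NDUFA9, NDUFA12, NDUFB4, UQCR10, COX6A1 and ATP5F1C).

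The ETS motif was found in 20 promoters (20.8%, interval 13.9 to 30%), beside 11.8% of all coding genes and 18.9% of coding genes with a peak. It occurred in 5 of 12 complex IV promoters (COX5B, COX6A1, COX6B1, COX7A2L and COX8A). Of the 20 genes, 15 had a peak (75%), beside 65.8% of members without the motif, and over all coding genes the shares were 67.6 and 38.9%. As for position, 17 of the 19 ETS matches in genes with a peak lay inside it, with matches of COX5B and COX6B1 outside. ETS and NRF1 motifs occurred together in SDHD, UQCR11 and COX6A1. The YY1 motif was found in 6 promoters (6.25%, interval 2.9 to 13%), beside 1.86% of all coding genes and 3.35% of coding genes with a peak, at a median position of 18, just inside the transcribed part. These genes were NDUFA7, NDUFA9, NDUFS4, SDHB, ATP5MC1 and NDUFAF8. At least 1 of the NRF1, ETS and YY1 motifs was present in 46 of 96 promoters (47.9%), beside 20.2% of all coding genes. The mitochondrial ribosomal protein genes held NRF1 in 16.7%, ETS in 33.3% and YY1 in 14.1% of promoters, and the proteasome genes held NRF1 in 5.13% and ETS in 28.2%.

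G-rich motifs were not more frequent than elsewhere. The SP/KLF motif GGGCGG was found in 51% of member promoters (interval 41.2 to 60.8%), beside 52.1% of all coding genes and 68.5% of coding genes with a peak. A G4 motif was found in 19 promoters (19.8%, interval 13.1 to 28.9%), beside 28.3 and 32.8%. With a G4 motif 12 of 19 members had a peak (63.2%), and without it 53 of 77 (68.8%). Of the 7 with a G4 motif and no peak, 4 were the tissue isoforms printed above. The order was the other way round among the subunits of complexes I to V (78.6% with, 75.4% without) and over all coding genes (49 and 39.7%). Of the 90 whole peaks, 19 held a G4 motif (21.1%, interval 14 to 30.6%), beside 42.5% of peaks at all coding genes and 23.4% of all peaks, and the median GC content of the peaks was 60.6%, beside 65.6% at all coding genes. These are sequence matches, and whether they fold in the cells was not measured here.

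**Figure D5:**
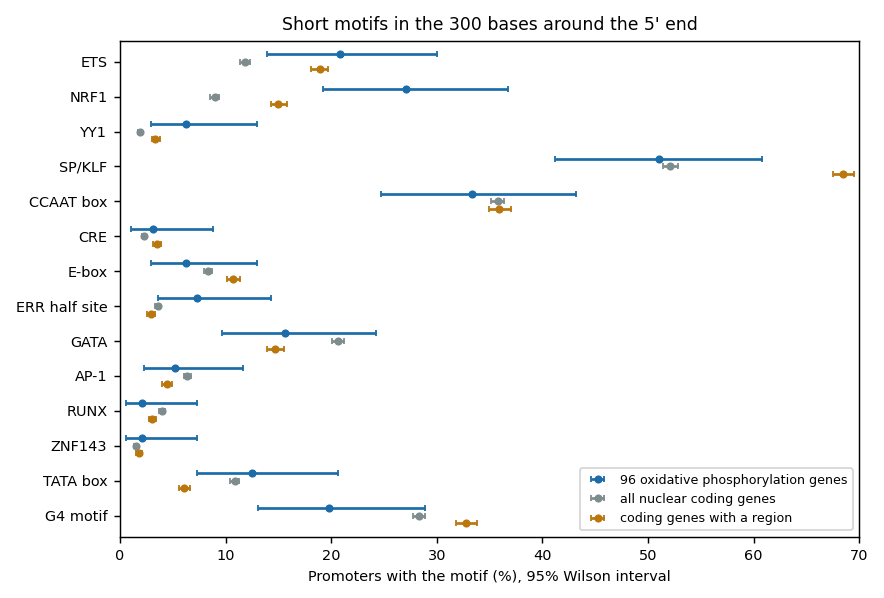
Points give the percentage of promoters of 300 bases that hold each motif on either strand and bars the 95% Wilson interval, for the 96 members, all nuclear coding genes and coding genes with a SMARCA4 peak. NRF1 is at 27.1% in the members and 8.95% in all coding genes, and the G4 motif at 19.8 and 28.3%.

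For the following motifs the share of all coding genes lay inside the interval of the members. The CCAAT box was at 33.3% beside 35.8%, the GATA motif at 15.6% beside 20.6%, and the TATA box at 12.5% beside 10.9%. The E-box CACGTG was at 6.25% beside 8.33%, AP-1 (TGANTCA) at 5.21% beside 6.36%, and the CRE at 3.12% beside 2.29%. RUNX (TGTGGTT) and ZNF143 were each at 2.08%, beside 3.99 and 1.48%, and the ZNF143 matches were in COX7C and COX7B. The core motif of the oestrogen-related receptors (ERR), AAGGTCA, was found in 7 promoters (7.29%, interval 3.58 to 14.3%), beside 3.56% of all coding genes, a value just below the interval. Some of these shares moved with the window. At canonical starts ERR was at 13.7% (interval 8.17 to 22%) beside 2.84%, YY1 at 11.6% (6.59 to 19.6%) beside 2.86%, NRF1 at 29.5% beside 11%, ETS at 27.4% beside 14.1%, and the G4 motif at 14.7% (8.99 to 23.2%) beside 34.1%. In 400 bases centred on the gene 5′ end, the E-box was at 12.5% (7.3 to 20.6%) beside 9.52% of all coding genes.

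Motifs were also searched in the central 200 bp of the peaks. At the 16 of 90 peaks narrower than 200 bp, this stretch reached outside the peak. The ERR motif was found in this stretch at 9 of 90 peaks (10%, interval 5.35 to 17.9%), beside 1.79% of peaks at all coding genes and 4.32% of peaks at no coding gene. These peaks belonged to 8 genes, NDUFB9, NDUFS6, NDUFV1, UQCRB, UQCRH, COX6C, COX8A and ATP5MC3. NRF1 and ETS were each found in 13 peak centres (14.4%, interval 8.64 to 23.2%), beside 8.58 and 11.2% at all coding genes. SP/KLF was found in 36.7% beside 57.1%, the CCAAT box in 25.6% beside 18.1%, and a G4 motif in 6 centres (6.67%, interval 3.09 to 13.8%) beside 24.6%. GATA was found in 14.4% of the centres at members and 12% at all coding genes, whereas peaks at no coding gene held it in 50.2% of centres.

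The median GC content of the 300 bases was 60.3% in members with a peak and 58.7% in those without, and the median CpG ratio was higher with a peak, 0.855 beside 0.673. With a CpG ratio of at least 0.6, 56 of 76 members had a peak (73.7%), and below it 9 of 20 (45%), beside 60.9 and 16.7% of all coding genes. Of the 31 members without a peak, 21 were more than 10 kb from the nearest, beside 9457 of 11636 coding genes without a peak. The median distance was 13895 bp in these members and 52521 bp in these coding genes. As a measure of read placement, 75-base pieces of each window, cut every 25 bases, were aligned back to the genome. In members without a peak a median of 100% of the pieces were placed at their own position with a mapping quality of at least 10, and the lowest value was 78.2%, for UQCRC1. The lowest values with a peak were 82.1% for NDUFAF1 and 87.2% for SDHA and COX7B. Most of every window therefore had letters that place a read of this length once.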

How the data were processed

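SMARCA4 ChIP-seq of K562 cells was analysed from the deposited list of peaks. The authors' tools were cutadapt 1.16 for trimming, BWA 0.7.15 for alignment (hg19), Picard 2.14.0 and SAMtools 1.6 for duplicates, MACS2 2.1.1 for peaks of single replicates (q-value of 0.05) and bedtools 2.26.0 for the regions present in 2 of 3 replicates. The deposited values are positions in bp in 3 columns, with no score, so the depth behind each peak is unknown.

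Peaks were compared with GENCODE 44 lifted to hg19 and the GRCh37 sequence, using Python 3.11.15, numpy 2.4.6, scipy 1.17.1, pysam 0.24.0, samtools 1.23.1, minimap2 2.31 and matplotlib 3.10.9. Shares carry 95% Wilson intervals and medians exact binomial intervals. No test was run. Complexes were assigned by symbol. The CpG ratio is the observed over the expected number of CpG in the 300 bases. Divergent neighbours started within 1 kb, overlapped by at most 200 bp, and were named genes outside readthrough loci, as were genes sharing a peak. Motifs were matched exactly on both strands, with GATAA for GATA and TATAAA for the TATA box. The GGGCGG motif can overlap a G4 motif, and ETS, NRF1 and YY1 motifs can overlap others.

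Genes were named by rule: core and catalytic subunits (not all of them), members without a peak (not all of them), isoforms with their partners, and the widest and narrowest peak of each complex. Other genes were named after their values were seen, as were the printed sequences and the placement of 75-base pieces. The members and lists were chosen with earlier results of these data known. Alternatives were other windows, 5′ ends, overlaps, least widths, merged peaks and motif windows. On simulated data, 16000 overlaps and distances, 1300 motif searches and 200 G4 searches gave 0 wrong answers.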

Additional observations from a re-analysis of the deposited data

How the results depend on the processing

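Over 118 values under alternative settings, 99 stayed within the 95% interval of the reported value and 19 did not. The share of members with a peak ran from 62.5% (peaks of at least 200 bp) to 76% (any coding start) and was 49% when the 5′ end had to lie inside the peak. Complex V rose to 94.4% at any coding start and 94.4% at canonical starts, and fell to 38.9% with the 5′ end inside the peak. For all coding genes, whose interval is narrow, the share was 40% within 500 bp, 44.3% within 2 kb, 46.8% at any coding start, 44.8% at canonical starts, 39.6% with peaks of at least 200 bp, 41.5% with at least 100 bp of overlap and 30.5% with the 5′ end inside the peak. The median width was 497 bp when peaks at most 500 bp apart were merged. At canonical starts the promoter share was 61.1% for SP/KLF, beside 61.8% of all coding genes. For the TATA box it was 6.32% beside 9.56%, the other order from the 12.5% beside 10.9% at gene 5′ ends. Most whole peaks were longer than the 200 bp searched at their centre, but 16 of 90 were narrower. In whole peaks the share was 52.2% for SP/KLF, 36.7% for the CCAAT box, 16.7% for the E-box, 31.1% for GATA and 21.1% for the G4 motif. For the other moved values the cause was not tested.

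By gene, the 2 kb window added UQCRC1, ATP5MC2 and NDUFA4L2. The 500 bp window lost NDUFC1, COX4I1 and NDUFAF3, and peaks of at least 200 bp lost NDUFA10, NDUFS8, COX6B1, COX6C and ATP5ME. No paired analysis was possible because the list pools the replicates and gives no value per replicate, and for the same reason no replicate was left out in turn.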
